A study of Mus musculus with 24 samples.

Results

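The genes described here are 9 genes of hepatic glucose handling, taken by name: Pck1, G6pc, Fbp1 and Pcx, which encode enzymes of gluconeogenesis, Pklr, which encodes the liver pyruvate kinase of glycolysis, Slc2a2, which encodes the glucose transporter GLUT2, and Insr, Irs1 and Irs2, which encode the insulin receptor and its main substrates. They are 9 of the 14995 genes in the count table, and all 9 were among the 13121 genes that passed the filter on low counts and were tested. Messenger RNA was measured in livers of mice collected 20 weeks after the operation, with 3′ tag libraries of 50 bp reads. There were 8 libraries from each of 3 groups: mice given a sham operation (Sham), mice given a Roux-en-Y gastric bypass (RYGB), and mice whose weight was matched to the RYGB mice by calorie restriction (WM). The series title calls the mice obese. The sources used here do not give strain, genotype, sex, age, diet, feeding state at collection, or whether WM mice were also operated on. Libraries are named by group and the number in their label. Nothing in the labels says more of how the samples of a group were kept apart, so the p-values measure the spread between these samples.

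The liver keeps blood glucose steady by releasing glucose in fasting and storing or burning it after a meal. Gluconeogenesis builds glucose from lactate, amino acids and glycerol: pyruvate carboxylase (Pcx) and phosphoenolpyruvate carboxykinase (Pck1) start the route from pyruvate, fructose bisphosphatase (Fbp1) acts midway, and glucose-6-phosphatase (G6pc) releases free glucose. Insulin, acting through its receptor and IRS proteins on the kinase AKT, keeps the transcription factor FOXO1 out of the nucleus, which lowers transcription of Pck1, G6pc, Irs2 and Igfbp1. Glucose itself raises transcription of Pklr through the factor ChREBP (gene Mlxipl).

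Promoter sequence was matched for 8 of the 9 genes in RefSeq (GRCm38.p6). Insr was not matched. Short motifs tied to these controls were looked for on both strands, in windows from 250 bases before to 50 bases after each start: TGTTTTG, the core of the insulin response sequence to which FOXO factors bind, ACGTCA, the core of the cAMP response element, CACGTG, an E-box, and the carbohydrate response element. TGTTTTG stands in 6.28% of the 32851 mouse promoters in the table, CACGTG in 7.15%, ACGTCA in 7.51% and the carbohydrate response element in 0.119%. The first 3 sequences are shown because they belong to the gene with the largest WM difference among the 9 (G6pc), to the gene that passed the test in both comparisons with Sham (Pklr), and to a classical insulin- and cAMP-controlled gene that passed in neither (Pck1). Capitals mark TGTTTTG in G6pc, the carbohydrate response element in Pklr and ACGTCA in Pck1. Each run ends at the base before the start, written as base -1.
G6pc, chr11:101367466-101367715, plus strand: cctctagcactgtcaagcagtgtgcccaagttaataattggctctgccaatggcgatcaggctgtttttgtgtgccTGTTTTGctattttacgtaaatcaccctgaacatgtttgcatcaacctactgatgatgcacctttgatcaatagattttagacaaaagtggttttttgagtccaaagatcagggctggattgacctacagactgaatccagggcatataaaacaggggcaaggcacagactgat
Pklr, chr3:89136373-89136622, plus strand: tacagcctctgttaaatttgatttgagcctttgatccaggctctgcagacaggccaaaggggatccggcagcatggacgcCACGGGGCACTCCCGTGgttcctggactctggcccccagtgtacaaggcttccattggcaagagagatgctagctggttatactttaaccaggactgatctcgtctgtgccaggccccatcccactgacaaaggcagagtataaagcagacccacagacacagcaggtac
Pck1, chr2:173152823-173153072, plus strand: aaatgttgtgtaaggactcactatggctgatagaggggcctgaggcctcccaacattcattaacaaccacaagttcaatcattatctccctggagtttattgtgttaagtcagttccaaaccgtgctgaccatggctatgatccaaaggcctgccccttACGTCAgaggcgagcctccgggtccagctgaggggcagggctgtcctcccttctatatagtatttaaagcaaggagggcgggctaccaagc

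The match in G6pc covers bases -174 to -168, that in Pklr bases -170 to -154 and that in Pck1 bases -91 to -86. The Pklr sequence belongs to the downstream of 2 annotated starts, which lie 481 bases apart, and 3′ tags do not tell transcripts from the 2 starts apart. The windows of both receptor substrates hold a TGTTTTG beside an E-box, and the stretches with both are shown for that reason, with both motifs in capitals.
Irs1, chr1:82291525-82291564, minus strand: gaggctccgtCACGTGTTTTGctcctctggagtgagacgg
Irs2, chr8:11008945-11008984, minus strand: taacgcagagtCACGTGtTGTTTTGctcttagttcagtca

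In Irs1 the E-box (bases -115 to -110) and the TGTTTTG (bases -111 to -105) overlap, and a further TGTTTTG lies at bases -32 to -26. In Irs2 the E-box covers bases -44 to -39 and the TGTTTTG bases -37 to -31. A CACGTG also lies at bases -248 to -243 of Pcx. None of the 4 motifs was found in the windows of Fbp1 and Slc2a2. A match describes the letters of the sequence and does not show that a factor binds there.

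Levels are given as CPM, counts scaled to a fixed library total, after TMM scaling, which sets libraries to a common composition on the premise that most genes do not change. A 3′ library holds about 1 fragment per transcript, so levels of different genes were compared without dividing by length. Calls rest on edgeR's quasi-likelihood F-test over all 24 libraries, with an adjusted p under 0.05 (Benjamini-Hochberg over the 13121 genes). Log2 fold changes carry their standard error (SE), and intervals are 95% intervals. Where groups are said not to overlap, the share of all tested genes that lie apart in this way is not given. Library totals ran from 13659647 to 22766612 counts, and the 9 genes had between 95 (Irs2) and 20247 (Pck1) counts per library.

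Several measured features of the livers moved with the groups. Markers of hepatocytes summed to 48400 to 105000 CPM in Sham, 103000 to 179000 CPM in WM and 108000 to 182000 CPM in RYGB, with 9 of 13 higher in RYGB and 10 of 13 higher in WM than in Sham and 1 lower in each. Over all tested genes, 12.7% were higher and 11% lower in RYGB, and 16.5% higher and 15% lower in WM. Kupffer cell markers were higher in 11 of 13 cases in RYGB and 9 of 13 in WM (summed level in Sham 102 to 434 CPM, in WM 314 to 890, in RYGB 293 to 1010), and stellate cell markers were lower in 6 and 7 of 12. Summed levels of the endothelial list in Sham were 64.0 to 298 CPM, in WM 226 to 416 and in RYGB 145 to 373, and of the erythroid list, in the same order of groups, 822 to 2490, 1530 to 10000 and 2890 to 5760. In that order the adipocyte list summed to 3230 to 5180, 884 to 4250 and 1310 to 4890 CPM, and the cholangiocyte list to 49.9 to 105, 28.6 to 44.4 and 37.1 to 57.7. Of 12 endothelial markers 4 were higher in RYGB and 8 in WM, and of 8 tested erythroid markers 3 and 7, with none lower. Of 7 tested adipocyte markers 2 were higher and 1 lower in RYGB, and 3 were lower in WM. Of 7 tested cholangiocyte markers 1 was lower in RYGB and 2 in WM. None of the 12 endocrine pancreas markers was in the table. A set of 20 genes of pancreatic acinar cells that were not among the tested genes summed to 1490 CPM in Sham 17, 3360 in RYGB 18 and 3340 in RYGB 19, against at most 28.2 CPM in the other 21 libraries. The part of these cell types in the results below was not tested. In bulk tissue, fewer cells of a type and less RNA per cell cannot be told apart.

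**Figure D1:**
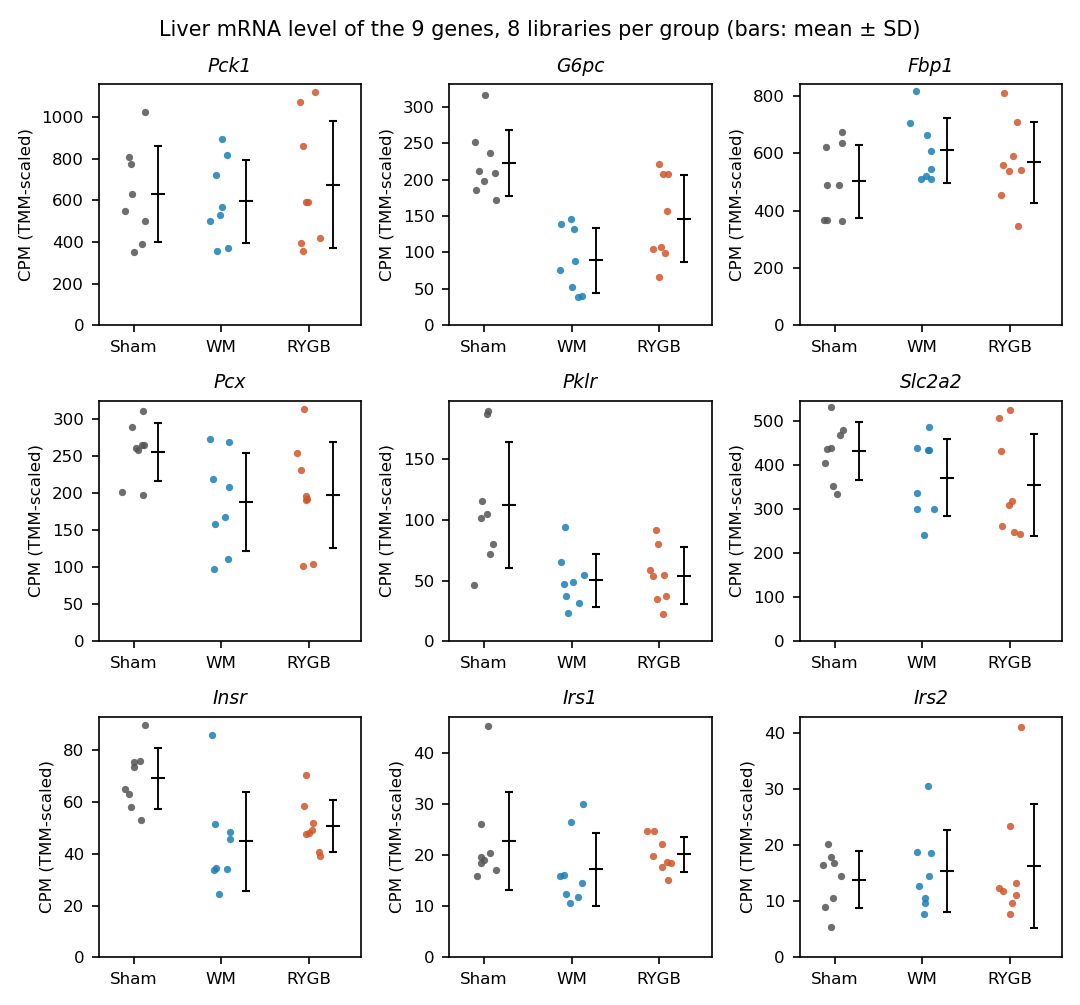
TMM-scaled CPM (y axis, from 0) of the 9 genes in the 24 libraries by group; points are libraries and bars are mean ± SD of 8. G6pc in WM (39.2 to 146.0 CPM) lies wholly under Sham (172 to 316 CPM), and the other 8 genes overlap between all groups. The share of all tested genes that lie apart in this way is not given here.

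The 9 genes fell into a wide span of abundance. In Sham the order of mean levels was Pck1, Fbp1, Slc2a2, Pcx, G6pc, Pklr, Insr, Irs1 and Irs2, from 630 ± 229 down to 13.9 ± 5.07 CPM (SD, n = 8), which is the 98.9th to the 58.0th percentile of tested genes. Neighbours in this order overlapped in range except Slc2a2 and Pcx, and Insr and Irs1. RYGB had the same order, and only Insr and Irs1 were apart. WM had Fbp1 (610 ± 112 CPM) just before Pck1 (596 ± 199 CPM), with overlap between all neighbours. Spread between libraries differed too: the fitted biological coefficient of variation ran from 0.259 for Fbp1 to 0.44 for Irs2, against a median of 0.356 over tested genes.

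Compared with Sham, 3 of the 9 genes were lower in WM (G6pc, Pklr and Insr) and 1 was lower in RYGB (Pklr). None was higher in either comparison. G6pc fell by 60.0% and Pklr to a fold of 0.449 in WM, and Pklr to 0.484 in RYGB. Over all tested genes, 31.4% were called in WM against Sham and 23.7% in RYGB against Sham, beside 33.3% and 11.1% of the members. The RYGB share rests on 1 gene and moved with the method. In RYGB, limma-voom called 4 of the 9, with 5020 of all 13121 genes called. Scaling by library totals called 5 of the 9 in RYGB, with 753 genes higher and 3532 lower over all. By direction, 15% of all genes were lower and 16.5% higher in WM, and 11% lower and 12.7% higher in RYGB. The median log2 fold change of the 9 was -0.40 in WM and -0.28 in RYGB, against -0.01 over all tested genes in both. These medians are of the main fit only, and several of the 9 values moved or changed sign in the alternative runs given below. Both comparisons use the same 8 Sham libraries. Between RYGB and WM, edgeR called 0 of the 9 genes, against 1.49% of all tested genes (1.06% higher and 0.434% lower in RYGB). Of the 9, only G6pc had an unadjusted p under 0.05, and every alternative run, DESeq2 and limma included, also called 0.

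**Figure D2:**
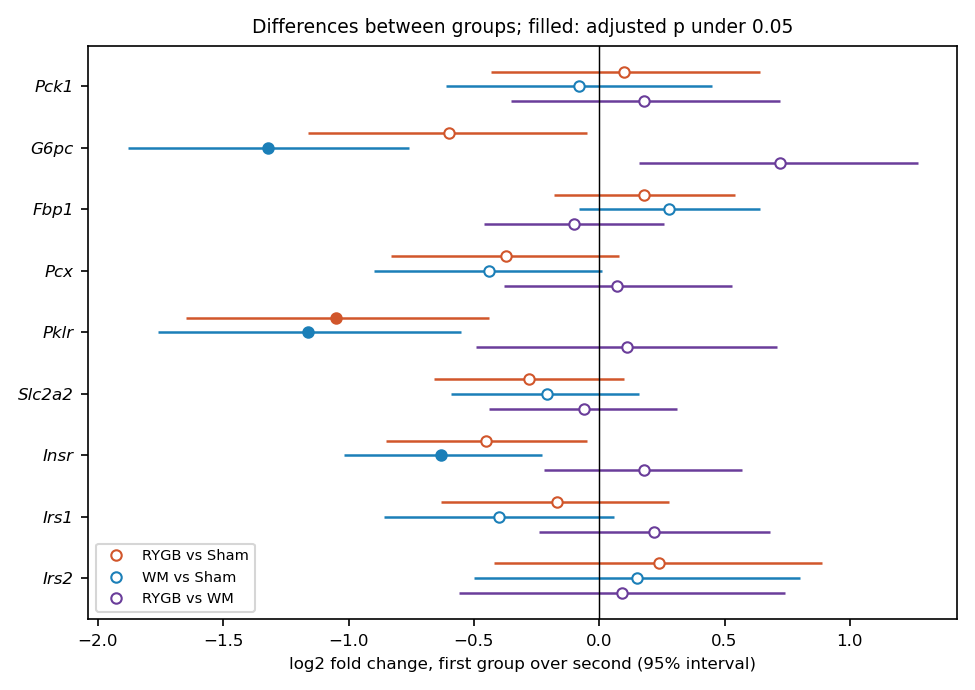
Log2 fold change (x axis) of the 9 genes in RYGB vs Sham, WM vs Sham and RYGB vs WM, with 95% intervals; filled points have an adjusted p under 0.05. The filled points are Pklr in both comparisons with Sham (-1.05 and -1.16) and G6pc (-1.32) and Insr (-0.63) in WM.

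G6pc, the enzyme of the last step of glucose release, had levels of 172 (lowest), 211 (median) and 316 (highest) CPM in Sham, 39.2, 82.2 and 146.0 CPM in WM, and 67.0, 132 and 221 CPM in RYGB. Every WM library lay under the lowest Sham library, while RYGB overlapped both. The gene fell in WM against Sham by 1.32 ± 0.27 on the log2 scale (SE; interval -1.88 to -0.76; edgeR adjusted p = 0.000539), and with each library left out in turn the change stayed between -1.46 and -1.21. RYGB against Sham gave -0.60 ± 0.27 (interval -1.16 to -0.05; adjusted p = 0.105), which passed when libraries were scaled by their totals (-0.93, adjusted p = 0.014), in a fit of these 2 groups only (adjusted p = 0.0425) and under limma-voom with quality weights (-0.76, adjusted p = 0.0191). RYGB against WM gave 0.72 ± 0.27 (interval 0.16 to 1.27; unadjusted p = 0.0132, adjusted p = 0.26).

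Pck1, which commits carbon to gluconeogenesis, was the most abundant of the 9 in Sham and RYGB. Its lowest, median and highest levels were 353, 589 and 1026 CPM in Sham, 357, 549 and 897 in WM, and 355, 593 and 1118 in RYGB. The groups overlapped almost completely, and their lowest libraries were nearly level. The difference was -0.08 ± 0.26 in WM (interval -0.61 to 0.45; adjusted p = 0.842), where G6pc fell, and 0.10 ± 0.26 in RYGB (interval -0.43 to 0.64; adjusted p = 0.813). Its sign was not stable, being -0.22 in RYGB under scaling by library totals and -0.21 without the 3 acinar libraries. Across the 8 libraries of each group, Pck1 and G6pc had a Pearson r of 0.112 in Sham, 0.204 in WM and 0.145 in RYGB.

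**Figure D3:**
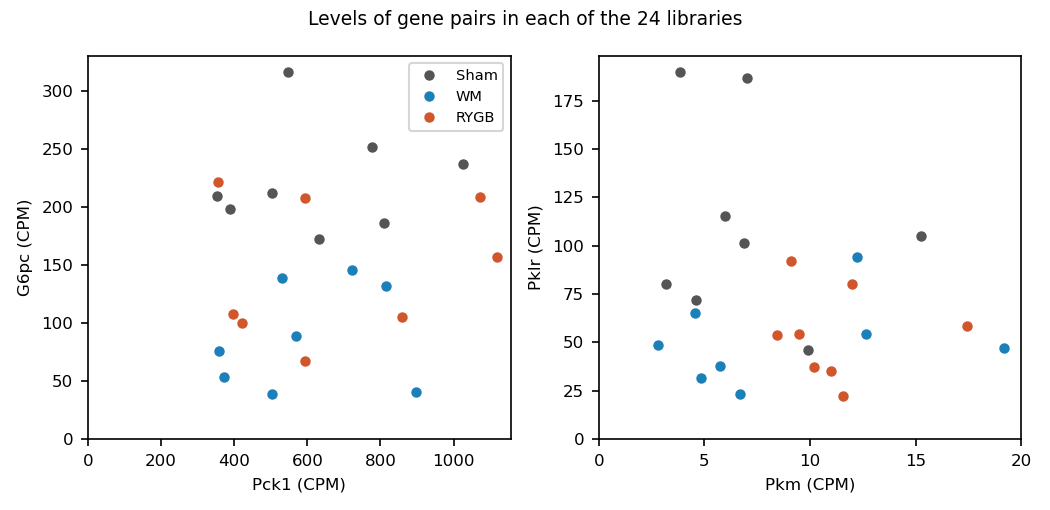
Left, G6pc against Pck1, and right, Pklr against Pkm, in TMM-scaled CPM (axes from 0), with 1 point per library coloured by group. The WM points lie under the Sham points on the G6pc axis and span the same Pck1 levels, and Pklr exceeds Pkm in all 24 libraries.

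Fbp1, which takes a phosphate off fructose bisphosphate, had 366, 491 and 673 CPM (lowest, median, highest) in Sham, 509.7, 576 and 817 in WM and 348, 550.1 and 809.6 in RYGB. The ranges overlapped in all 3 groups. The differences from Sham were 0.28 ± 0.18 in WM (adjusted p = 0.235) and 0.18 ± 0.18 in RYGB (adjusted p = 0.495), and both were under 0 with library totals (-0.05 and -0.16) and after a correction for GC content and length (-0.05 and -0.10).

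Pcx, the mitochondrial enzyme that makes oxaloacetate from pyruvate, had 197, 263 and 310.2 CPM in Sham, 97.1, 188 and 273 in WM and 102, 194 and 314 in RYGB. The lowest libraries of WM and RYGB lay well under the lowest Sham library, and the highest were close to each other. The differences were -0.44 ± 0.22 in WM (interval -0.90 to 0.01; adjusted p = 0.129) and -0.37 ± 0.22 in RYGB (interval -0.83 to 0.08; adjusted p = 0.236). Both passed under scaling by library totals (-0.81, adjusted p = 0.00393, and -0.72, adjusted p = 0.0106) and under limma-voom (-0.62, adjusted p = 0.0137, and -0.64, adjusted p = 0.00902).

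Scaling by library totals lowered the median of all genes by itself, to -0.33 in WM and -0.36 in RYGB, and only 22.4% and 17.6% of the called genes were then higher than in Sham, against 52.4% and 53.6% under TMM. The GC and length correction moved the share of higher calls the other way, to 64.0% and 64.6%. Under library totals 6 of the 9 genes were called in WM and 5 in RYGB. Of the 13121 tested genes, 1051 were then higher and 3634 lower in WM, and 753 higher and 3532 lower in RYGB. The library-total values of G6pc, Pcx and the genes below stand relative to that shift.

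Pklr, which makes pyruvate at the last step of glycolysis, was the only one of the 9 genes called in both comparisons with Sham. Its levels were 46.3, 103 and 190.0 CPM in Sham, 23.4, 47.9 and 94.1 in WM and 22.3, 54.0 and 92.1 in RYGB (lowest, median and highest). All 8 WM and all 8 RYGB libraries lay under the Sham median, and 3 of each lay under the lowest Sham library, so the ranges overlapped. It fell by 1.16 ± 0.30 on the log2 scale in WM (interval -1.76 to -0.55; adjusted p = 0.00375) and by 1.05 ± 0.30 in RYGB (interval -1.65 to -0.44; adjusted p = 0.0102). Both calls held under every alternative run, from -1.50 to -1.14 in WM and from -1.38 to -1.04 in RYGB, and from -1.35 to -1.01 and -1.20 to -0.90 with single libraries left out. The change was as large without the 3 acinar libraries (-1.21 and -1.31). RYGB and WM differed by 0.11 ± 0.29 (interval -0.49 to 0.71; adjusted p = 0.958).

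Slc2a2, the glucose transporter of the hepatocyte surface, had 335, 438 and 533 CPM in Sham, 241, 385 and 488 in WM and 244, 314 and 526 in RYGB. All 3 ranges overlapped over most of their length. The differences were -0.21 ± 0.18 in WM (adjusted p = 0.394) and -0.28 ± 0.18 in RYGB (adjusted p = 0.288). Both passed under library totals (-0.52, adjusted p = 0.0256, and -0.62, adjusted p = 0.011). The RYGB difference also passed without the 3 acinar libraries and WM 25 (-0.52, adjusted p = 0.0401). After the GC and length correction both signs turned (0.33 in WM, 0.18 in RYGB).

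Insr, the receptor that starts the insulin cascade, had 52.9, 69.2 and 89.6 CPM in Sham, 24.3, 40.0 and 85.9 in WM and 38.9, 48.5 and 70.4 in RYGB. In WM, 7 of 8 libraries lay under the lowest Sham library and the other, WM 9, was close to the highest. In RYGB, 6 of 8 lay under the lowest Sham library. Insr fell in WM by 0.63 ± 0.19 (interval -1.02 to -0.23; adjusted p = 0.0144) and stood at -0.45 ± 0.19 in RYGB (interval -0.85 to -0.05; adjusted p = 0.0916). The WM call was lost after the GC and length correction (-0.18, adjusted p = 0.401) and without the 3 acinar libraries and WM 25 (-0.47, adjusted p = 0.0683), and was -0.83 without WM 9. The RYGB difference passed under library totals (-0.81, adjusted p = 0.0109), in a fit of the 2 groups (adjusted p = 0.0288) and under limma-voom (-0.40, adjusted p = 0.031), and was -0.05 after the GC and length correction.

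The IRS proteins carry the signal from the receptor to phosphoinositide 3-kinase. Irs1 had 15.9, 19.4 and 45.5 CPM in Sham, 10.6, 15.3 and 30.1 in WM and 15.1, 19.3 and 24.8 in RYGB, with the highest Sham value in Sham 14. It gave -0.40 ± 0.22 in WM (adjusted p = 0.18), which passed without WM 9 (-0.56, adjusted p = 0.0471) and under library totals (-0.68, adjusted p = 0.0373), and -0.17 ± 0.22 in RYGB (adjusted p = 0.616), which was 0.05 without Sham 14. Irs2 had 5.35, 15.6 and 20.2 CPM in Sham, 7.69, 13.6 and 30.6 in WM and 7.78, 12.1 and 41.2 in RYGB, with the highest RYGB value in the acinar library RYGB 18. Its differences were 0.15 ± 0.32 in WM (adjusted p = 0.756) and 0.24 ± 0.32 in RYGB (adjusted p = 0.636), and the RYGB value was -0.41 without the 3 acinar libraries. Irs1 exceeded Irs2 in 7 of 8 Sham, 5 of 8 WM and 6 of 8 RYGB libraries.

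Related enzymes and regulators place these levels. The mitochondrial carboxykinase Pck2 was at 2.51 CPM in Sham, so that Pck1 was 270.0 times as high in the median Sham library, 290.0 times in WM and 286 times in RYGB. G6pc stood 86.2 times as high as the ubiquitous G6pc3 in the median Sham library, 37.1 times in WM and 96.8 times in RYGB. Pklr was 17.5 times as high as Pkm, the pyruvate kinase of other tissues, in the median Sham library, 6.57 times in WM and 4.71 times in RYGB. Pkm itself gave 0.65 ± 0.33 in RYGB (adjusted p = 0.149; adjusted p = 0.0342 without Sham 3 and 0.0155 under limma-voom) and 0.28 ± 0.33 in WM (adjusted p = 0.544). Insr stood above Igf1r, the related receptor for IGF1, in every library (median ratio 8.62 in Sham, 9.22 in WM and 8.0 in RYGB). Igf1r also fell in WM (-0.67, adjusted p = 0.0255), a call lost without Sham 16, Sham 17, WM 1 or WM 13 (adjusted p = 0.0504 to 0.052), without the 3 acinar libraries (-0.63, adjusted p = 0.0581), and after the GC and length correction (-0.22, adjusted p = 0.469). In RYGB Igf1r gave -0.44 ± 0.23 (adjusted p = 0.165), which passed under library totals (-0.8, adjusted p = 0.0153) and limma-voom (-0.61, adjusted p = 0.0172). Of the 13 related genes listed, 12 were tested, and Fbp2 was not analysed here. G6pc3, Pck2, Foxo1 and Mlxipl did not pass in any comparison under the main settings. G6pc3, at 2.96 CPM in Sham and 1.74 in RYGB, gave -0.76 ± 0.39 in RYGB (adjusted p = 0.165), which passed without the 3 acinar libraries (-1.36, adjusted p = 0.023), without RYGB 18 alone (-1.12, adjusted p = 0.0335), under library totals (-1.07, adjusted p = 0.0276) and after the GC and length correction (-0.98, adjusted p = 0.032). In WM it gave -0.65 ± 0.39 (adjusted p = 0.212), which passed under library totals (-0.93, adjusted p = 0.0486) and after that correction (-0.90, adjusted p = 0.0403). Foxo1 in RYGB (-0.19 ± 0.19; adjusted p = 0.518) passed under library totals (-0.55, adjusted p = 0.0431).

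**Figure D4:**
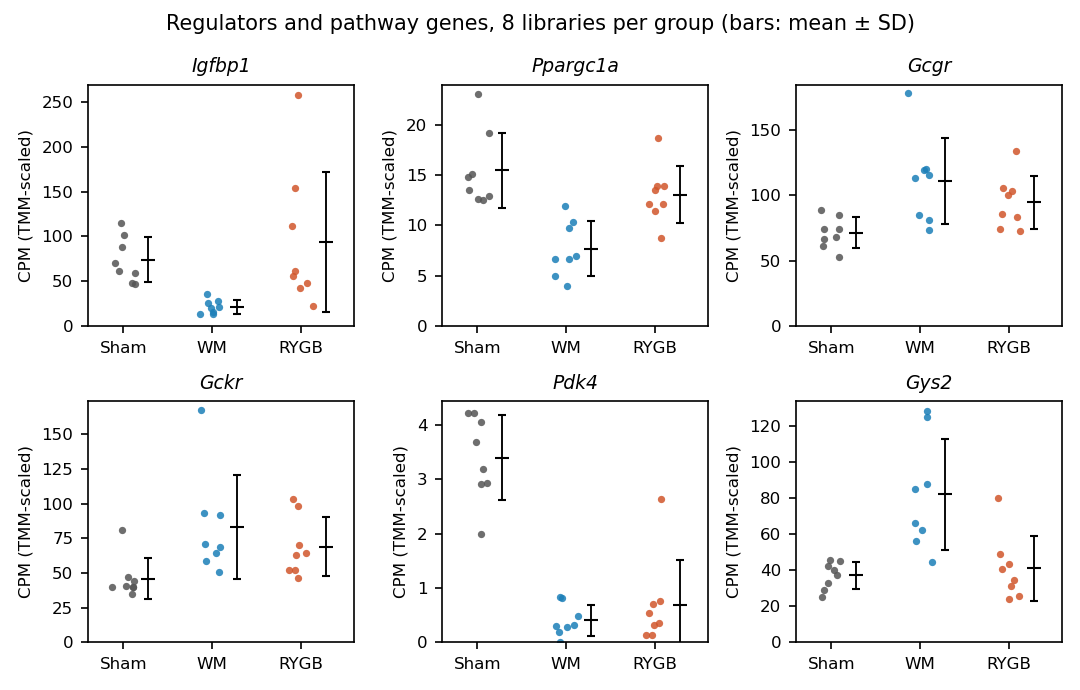
TMM-scaled CPM (y axis, from 0) of 6 regulators and enzymes of glucose metabolism in the 24 libraries; points are libraries and bars are mean ± SD of 8. Igfbp1 and Ppargc1a in WM lie under all Sham libraries, and Pdk4 in WM too. The share of all tested genes that lie apart in this way is not given here.

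Igfbp1, a secreted binding protein for IGF1 that insulin represses, had 46.6, 66.2 and 115 CPM in Sham, 13.0, 20.3 and 36.0 in WM and 21.9, 58.6 and 258 in RYGB (lowest, median, highest). All 8 WM libraries were under the lowest Sham library. It fell by 1.77 ± 0.36 in WM against Sham (adjusted p = 0.000398) and was higher in RYGB than in WM by 2.12 ± 0.36 (interval 1.38 to 2.86; adjusted p = 0.00103), with 7 of 8 RYGB libraries above the highest WM library. RYGB against Sham gave 0.35 ± 0.35 (adjusted p = 0.5; -0.02 under library totals).

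Ppargc1a, the coactivator PGC-1α that helps drive gluconeogenic genes, had 12.5, 14.2 and 23.0 CPM in Sham and 4.00, 6.80 and 11.9 in WM, without overlap. It fell by 1.01 ± 0.21 in WM (adjusted p = 0.000422). RYGB levels were 8.77, 12.8 and 18.7 CPM, 0.77 ± 0.21 above WM (adjusted p = 0.0522), which passed without WM 7, WM 9, WM 27 or RYGB 29 (adjusted p = 0.0243 to 0.0391), under DESeq2 (0.76, adjusted p = 0.0213) and limma-trend (0.82, adjusted p = 0.0358), and after the GC and length correction (0.72, adjusted p = 0.00718). In the Sham comparison RYGB gave -0.24 ± 0.20 (adjusted p = 0.406; 0.20 after the GC and length correction).

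Gckr, a regulatory protein of the hepatocyte, rose in WM from 46.0 ± 14.6 to 83.1 ± 37.1 CPM (0.85 ± 0.23; adjusted p = 0.00485), with 8 of 8 WM libraries above the Sham median. In RYGB, Gckr stood at 68.9 ± 21.3 CPM (0.58 ± 0.23; adjusted p = 0.0593), a difference that passed without Sham 3 (0.77, adjusted p = 0.0117), RYGB 10 or RYGB 22 (adjusted p = 0.0415 and 0.0482), and under DESeq2, limma-voom, a fit of the 2 groups and the GC and length correction (adjusted p = 0.00793 to 0.0487). The glucagon receptor Gcgr rose in WM (0.64 ± 0.17; adjusted p = 0.00563; 0.28, adjusted p = 0.185 under library totals). In RYGB Gcgr gave 0.41 ± 0.17 (adjusted p = 0.0812), which passed in a fit of the 2 groups (adjusted p = 0.0399) and under limma-voom (0.35, adjusted p = 0.0432).

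The wider pathway was described through 7 lists, with 180 tested of 193 listed genes. In RYGB against Sham 20 were higher and 17 lower (20.6%, background 23.7%), in WM against Sham 26 were higher and 35 lower (33.9%, background 31.4%), and in RYGB against WM 1 was higher and 2 were lower (1.67%, background 1.49%). The medians were -0.06, -0.01 and -0.02, against -0.01, -0.01 and -0.02 over all genes. Genes named below from these lists had the smallest p in their list and comparison once called genes under 5 CPM in both groups were set aside, or, as Pdk4, belong to the 13 related genes. Those marked with "also" were named after their values were seen, to spell out a count.

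**Figure D5:**
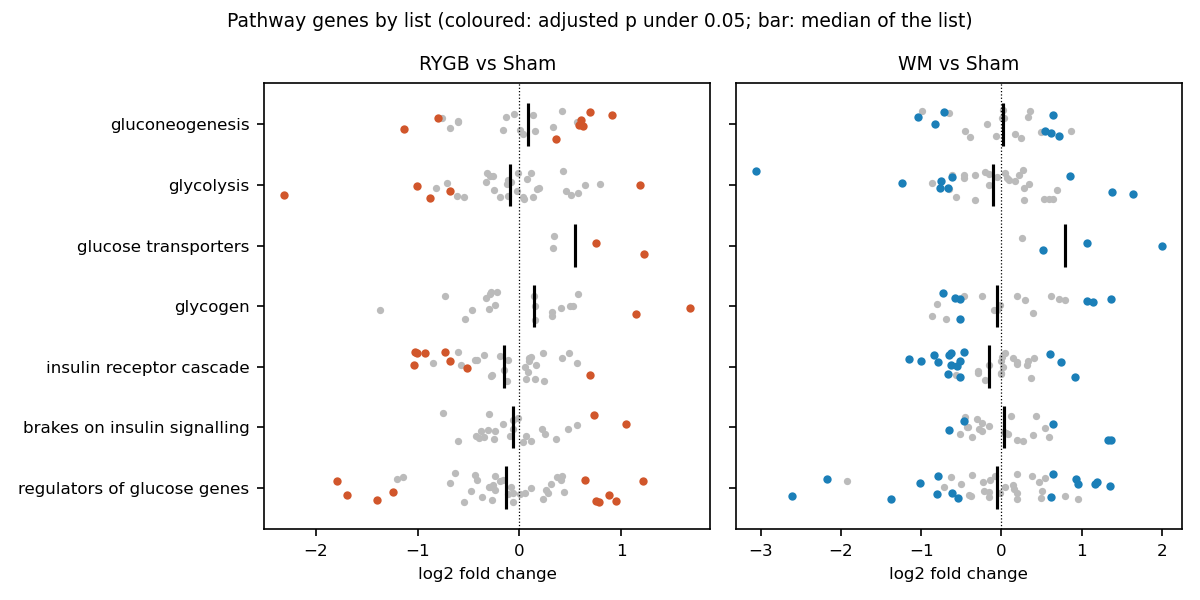
Log2 fold change (x axis) of each tested gene of the 7 pathway lists (rows) in RYGB vs Sham (left) and WM vs Sham (right); coloured points have an adjusted p under 0.05, and bars are list medians. The insulin receptor cascade list has 7 lower and 1 higher of 33 in RYGB and 12 lower and 3 higher in WM. Of all tested genes, 11% are lower and 12.7% higher in RYGB, and 15% lower and 16.5% higher in WM.

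Of 22 other genes tied to gluconeogenesis, 6 were higher and 2 lower in RYGB than in Sham, and 4 were higher and 3 lower in WM (median 0.09 and 0.02). The called share was 36.4% in RYGB and 31.8% in WM, against 23.7% and 31.4% of all tested genes. The total called, 8 and 7, was 13 and 11 under limma-voom. Mpc2, a subunit of the mitochondrial pyruvate carrier, rose in RYGB from 337 to 632 CPM (0.91 ± 0.18; adjusted p = 0.000381) and in WM to 557 CPM (0.72 ± 0.18; adjusted p = 0.00232; 0.42, adjusted p = 0.111 under library totals). The oxoglutarate carrier Slc25a11 rose in WM (0.55 ± 0.12; adjusted p = 0.000782), a call lost under library totals (0.22, adjusted p = 0.201) and the GC and length correction (0.31, adjusted p = 0.0832). It passed in RYGB too (0.36 ± 0.12; adjusted p = 0.0281), without overlap. That call was lost without the 3 acinar libraries (0.29, adjusted p = 0.153), without Sham 5, Sham 16, Sham 17 or RYGB 19 (adjusted p = 0.0546 to 0.0609), under library totals (0.01) and after that correction (0.13). Also lower were Gpt2 (-0.80) and Sds (-1.13), enzymes of alanine and serine breakdown, in RYGB, and Gpd1 (-1.04), Gk (-0.71) and Mpc1 (-0.83) in WM.

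Of 34 glycolysis and pyruvate oxidation genes, 1 was higher and 4 were lower in RYGB, and 3 were higher and 6 lower in WM. The called share was 14.7% in RYGB and 26.5% in WM, against 23.7% and 31.4% of all tested genes. The 5 called in RYGB became 8 to 10 under DESeq2, library totals, a fit of the 2 groups, limma-voom and the GC and length correction. With a library left out they were 2 to 7, being 2 without Sham 16, Sham 23, RYGB 15 or RYGB 28 and 3 without Sham 5, Sham 14, RYGB 10 or RYGB 11. The 9 called in WM became 15 under library totals. Pdk4, the kinase that switches off pyruvate dehydrogenase and is known to rise in fasting, had 3.4 ± 0.785 CPM in Sham, 0.404 ± 0.292 in WM and 0.695 ± 0.822 in RYGB (SD, n = 8), on at most 98 counts per library. It fell in WM (-3.06 ± 0.53; adjusted p = 7.61e-05) and in RYGB (-2.31 ± 0.51; adjusted p = 0.00148). Pdha1, a subunit of that dehydrogenase, fell in WM (-0.62 ± 0.15; adjusted p = 0.00203). In RYGB Pdha1 gave -0.29 ± 0.15 (adjusted p = 0.153), which passed under library totals (-0.64, adjusted p = 0.0106). Aldoc, an aldolase, rose in RYGB (1.19 ± 0.26; adjusted p = 0.00137). In WM Aldoc gave 0.65 ± 0.26 (adjusted p = 0.055), which passed under DESeq2 (0.66, adjusted p = 0.043). It also passed without Sham 2, Sham 14, Sham 23, WM 1 or WM 27 (adjusted p = 0.021 to 0.0477). Pfkfb3, a regulator of phosphofructokinase, rose in WM from 3.29 to 8.57 CPM (1.38 ± 0.34; adjusted p = 0.0028) and was lower in RYGB (2.76 CPM) than in WM (-1.63 ± 0.35; adjusted p = 0.00882). Also called were Dlat (0.77) higher in RYGB than in WM, and against Sham Hk3 (1.64) higher in WM and Hk2 (-0.88) lower in RYGB. Gpi1 (-0.68 in RYGB, -0.66 in WM) and Tkfc (-1.01 in RYGB, -1.24 in WM) were also lower than in Sham in both groups.

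Among 4 tested sugar transporters other than Slc2a2, 2 were higher in RYGB and 3 in WM, and none was lower. Of all tested genes, 12.7% were higher in RYGB and 16.5% in WM. The RYGB count was 0 without the 3 acinar libraries, 1 under library totals, and 1 without any of Sham 2, 6, 14, 16 or 17 or RYGB 11, 15, 18, 19 or 29. The fructose transporter Slc2a5 rose from 3.30 to 13.2 CPM in WM (2.00 ± 0.31; adjusted p = 1.77e-05), without overlap, and to 7.77 CPM in RYGB (1.23 ± 0.31; adjusted p = 0.00399), a call lost without the 3 acinar libraries (0.75, adjusted p = 0.0818). RYGB against WM gave -0.77 ± 0.30 (adjusted p = 0.277), which passed without those 3 (-1.24, adjusted p = 0.0222). Also higher were Slc2a8 in both (0.75 in RYGB, 1.07 in WM) and Slc2a9 in WM (0.52).

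Of 21 glycogen genes, 2 were higher in RYGB, and 3 were higher and 4 lower in WM. The called share was 9.52% in RYGB and 33.3% in WM, against 23.7% and 31.4% of all tested genes. The 2 called in RYGB became 7 under library totals and limma-voom, 4 without RYGB 11 and 1 without RYGB 15, and the 7 called in WM became 4 after the GC and length correction. Ppp1r3c, a subunit that targets a phosphatase to glycogen, rose in RYGB from 22.2 to 71.3 CPM (1.68 ± 0.24; adjusted p = 8.66e-06), without overlap, and in WM to 57.2 CPM (1.37 ± 0.24; adjusted p = 6.51e-05). Gys2, the liver glycogen synthase, rose in WM from 37.2 ± 7.45 to 82.0 ± 31.0 CPM (1.14 ± 0.23; adjusted p = 0.000474) and was lower in RYGB (41.1 ± 17.9 CPM) than in WM (-1.0 ± 0.23; adjusted p = 0.0202), a call lost without WM 30 or RYGB 10 (adjusted p = 0.057 and 0.0564) and in a fit of the 2 groups (adjusted p = 0.0615). Also called were Ppp1r3b (1.15) in RYGB, and in WM Stbd1 (1.07), with Gbe1 (-0.58), Pygl (-0.51) and Phkb (-0.73) among the lower genes.

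Downstream of the receptor, 33 cascade genes had 7 lower and 1 higher in RYGB, and 12 lower and 3 higher in WM (median -0.15 and -0.16). The called share was 24.2% in RYGB and 45.5% in WM, against 23.7% and 31.4% of all tested genes. By direction, 11% of all genes were lower and 12.7% higher in RYGB, and 15% lower and 16.5% higher in WM. The 8 called in RYGB became 14 under library totals and limma-voom and 5 without the 3 acinar libraries. The 15 called in WM became 9 without those 3, 9 without Sham 17 alone and 7 after the GC and length correction. Gsk3b, a kinase that AKT inhibits, had 110.0 CPM in Sham, and fell to 49.5 CPM in WM (-1.15 ± 0.19; adjusted p = 2.84e-05) and to 53.8 CPM in RYGB (-1.03 ± 0.19; adjusted p = 0.000165). The higher genes were also Prkcz in both (0.70 in RYGB, 0.61 in WM) and Akt1 (0.74) and Akt2 (0.92) in WM. Also lower in both were Pik3r1 (-1.01 in RYGB, -0.47 in WM), Sos1 (-0.73, -0.63) and Pdpk1 (-0.68, -0.52). Prkaa2 (-1.04, -0.84), Rps6kb1 (-0.51, -0.55) and Prkci were also lower in both. Called lower in WM alone were also Pik3ca (-0.79), Grb2 (-0.51), Rictor (-0.65), Tsc1 (-0.63) and Igf1r (-0.67). Of 25 genes that restrain insulin signalling, 2 were higher in RYGB, and 3 were higher and 2 lower in WM. Their called share was 8.0% in RYGB and 20.0% in WM, under that of all tested genes in both. The 2 called in RYGB became 9 under limma-voom, 8 under library totals, 5 under DESeq2, 4 without RYGB 11, in a fit of the 2 groups and after the GC and length correction, 1 without Sham 5, RYGB 18 or RYGB 28, and 0 without the 3 acinar libraries. The 5 called in WM became 9 under library totals, and 3 in a fit of the 2 groups, without the 3 acinar libraries, or without any of Sham 14, 16 or 23 or WM 1, 20 or 25. Grb7, an adaptor protein that binds receptor tyrosine kinases, rose in RYGB (0.73 ± 0.21; adjusted p = 0.0114; adjusted p = 0.107 without the 3 acinar libraries) and in WM (0.65 ± 0.21; adjusted p = 0.0174; adjusted p = 0.0594 without WM 25), and neither passed under library totals (adjusted p = 0.117 and 0.218). Its relative Grb14, which binds the insulin receptor, fell in WM (-0.65 ± 0.16; adjusted p = 0.00294), a call lost after the GC and length correction (-0.26, adjusted p = 0.265). In RYGB Grb14 gave -0.38 ± 0.16 (adjusted p = 0.09), which passed under library totals (-0.7, adjusted p = 0.00362) and limma-voom (-0.43, adjusted p = 0.0174). Also called were Socs2 (1.05) in RYGB, and Socs3 (1.37), Dok4 (1.33) and Prkce (-0.47) in WM.

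Of 42 transcriptional and signalling regulators of glucose genes, 6 were higher and 4 lower in RYGB, and 7 were higher and 8 lower in WM. The called share was 23.8% in RYGB and 35.7% in WM, against 23.7% and 31.4% of all tested genes. The 10 called in RYGB became 17 under library totals and 20 under limma-voom. Nr1h3, the oxysterol receptor LXRα, rose in WM from 70.3 to 158 CPM (1.17 ± 0.20; adjusted p = 4.6e-05) and in RYGB to 121 CPM (0.78 ± 0.19; adjusted p = 0.00392), in RYGB without overlap. Ppara, the fatty acid receptor that drives genes of fasting, fell in RYGB from 392 to 166 CPM (-1.24 ± 0.29; adjusted p = 0.00259). In WM it gave -0.80 ± 0.29 (adjusted p = 0.036), which was lost when any of 10 single libraries was left out (adjusted p = 0.0502 to 0.0773).

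Within groups, 6 pairs of the 9 genes were correlated over the 8 libraries of each group, which makes 18 tests by exact permutation of the pairings, two-sided. None passed after adjustment, and 3 had an unadjusted p under 0.05. Pck1 and Irs2 had r = 0.802 in Sham (rho = 0.738; exact p = 0.0136, adjusted p = 0.217; r = 0.912 without the 2 libraries farthest from the median of Pck1). For this pair r was -0.667 in WM (exact p = 0.071) and 0.584 in RYGB (exact p = 0.133). Pck1 and Pklr had r = 0.775 in Sham (rho = 0.833; exact p = 0.0241, adjusted p = 0.217; r = 0.92 without 2 libraries), -0.33 in WM and 0.327 in RYGB. Pklr and Slc2a2 had r = 0.717 in RYGB (rho = 0.667; exact p = 0.0465, adjusted p = 0.279; r = 0.607 without 2 libraries), 0.062 in Sham and 0.438 in WM.

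The genes most like each of the 9 were named as the 2 with the highest Pearson r over the 24 libraries after subtracting group means, among 8366 genes of at least 5 CPM. These r values share libraries and depth and are given as a description. For the gluconeogenesis enzymes they were Eif4g3 (0.764) and Nat8f2 (0.731) for Pck1, Slc25a25 (0.734) and Slc17a8 (0.721) for G6pc, Col13a1 (0.832) and Atp5a1 (0.797) for Fbp1, and Galk1 (0.87) and Gga1 (0.861) for Pcx. Pklr was most like Tkfc (0.892), the triokinase of fructose metabolism, and Aars (0.88). For Slc2a2 they were Npc1 (0.853) and Ngef (0.835), for Insr Mtus1 (0.92) and Xpr1 (0.899), for Irs1 Tshz1 (0.767) and Pank3 (0.766), and for Irs2 Naa80 (0.843) and Sema4g (0.836).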

How the data were processed

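Liver RNA of 24 mouse samples was read as QuantSeq 3′ libraries, per the labels' protocols. The authors deposited raw read counts for each gene, and a normalized signal that equals the deposited count over a size factor of the library (relative difference at most 5e-15). R 4.1.2 and DESeq2 1.34 are named in the submitters' processing notes. The aligner, strand setting, build and counting program were not given in the sources used here. GENCODE M21 (GRCm38) gave symbols for 14959 of the 14995 Ensembl IDs.

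Tests used edgeR 4.0.16 in R 4.3.3: filterByExpr, TMM scaling, and a quasi-likelihood fit of all 24 libraries without covariates (common biological coefficient of variation 0.398). The fit was first run on simulated counts in which few genes changed, unlike these data, and the outcome is not given here. Levels are TMM-scaled CPM, and intervals use a t quantile of 2.045. Precision rests on the 95 to 20247 counts a member had per library, and on the spread between 8 libraries a group. Alternatives were DESeq2 1.42.0, RLE scaling, library totals, no filter, a filter of 1 CPM in 8 libraries, only 2 groups, limma 3.58.1 (voom with quality weights, and trend on the deposited values plus 1), a GC and length correction (mgcv 1.9.3), and libraries left out.

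The text names all 9 members, 13 related genes, the called gene with the smallest p of each list and comparison at a mean of at least 5 CPM, and the most alike genes. The members and lists were chosen with earlier results of these data known. Genes that overlap a member lie on the other strand and are not in the table. Some genes the rule takes are not reported here.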

Additional observations from a re-analysis of the deposited data

Results flagged for a closer look

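Within each group of 8, a library was marked where its gap to the nearest other library, divided by the group's range, was above the 95% critical value of Dixon's test for 8 values. Of 102 groups of 8 examined, 16 were marked, and chance marks about 1 in 20. Among the 9 genes 3 of 27 groups had such a library: Insr in WM 9 at 85.9 CPM (next 51.3), Irs1 in Sham 14 at 45.4 CPM (next 26.1) and Irs2 in RYGB 18 at 41.2 CPM (next 23.5).

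Among the other genes, WM 25 was the high library for Gckr (167 CPM), Gcgr (179 CPM), Aldoc (20.9 CPM), Grb7 (346 CPM) and Ppara (484 CPM). RYGB 18 was high for G6pc3 (4.47 CPM) and Pkm (17.4 CPM), RYGB 19 for Gys2 (79.9 CPM) and RYGB 11 for Pdk4 (2.65 CPM). In Sham, Gckr was high in Sham 3 (81.1 CPM), Foxo1 was high in Sham 23 (82.8 CPM) and Igf1r was low in Sham 14 (4.64 CPM, next 7.33). Slc25a11 was low in WM 7 (61 CPM, next 77.5).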

How the results depend on the processing

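No paired analysis was made because the labels name no pairs. The groups share no replicate numbers, which does not show whether mice were matched singly. Of 9 members, RYGB against Sham called 5 under library totals, 3 in a fit of 2 groups, 4 under voom, 2 without the 3 acinar libraries and WM 25, and 1 otherwise; WM against Sham called 6 under library totals, 4 under voom, 2 after the GC and length correction and when the acinar libraries and WM 25 were left out, and 3 otherwise (3 to 4 with a library left out). All genes called were 5020 under voom in RYGB against Sham (main 3109), and in RYGB against WM 362 under DESeq2, 332 after the GC and length correction and 121 in a fit of 2 groups (main 196). Pathway genes called in RYGB against Sham were 62 under library totals and 75 under voom (main 37), and in RYGB against WM 8 each under DESeq2, voom and the GC and length correction, 5 each under limma-trend and with the acinar libraries left out, and 7 with WM 25 left out too (main 3; 2 to 9 with a library left out, 5 without WM 9 and 9 without WM 25). The cause of these changes was not tested.

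Signs that turned belong to values that did not pass in the main fit. After the GC and length correction they were, in RYGB against Sham, Fbp1 -0.10, Slc2a2 0.18, Irs1 0.12, Foxo1 0.15 and Ppargc1a 0.20, and in WM against Sham Fbp1 -0.05, Slc2a2 0.33, Pck2 0.03 and Foxo1 0.24. Under library totals they were, in RYGB against Sham, Pck1 -0.22, Fbp1 -0.16, Irs2 -0.12, Igfbp1 -0.02, Mlxipl -0.04 and Gys2 -0.20, and in WM against Sham Fbp1 -0.05, Irs2 -0.19, Pkm -0.04 and Mlxipl -0.13. Under voom they were Pck1 -0.06, Irs2 -0.16 and Igfbp1 -0.28 in RYGB against Sham, Irs2 -0.22 and Mlxipl -0.14 in WM against Sham, and Pcx -0.01 and Foxo1 0.07 in RYGB against WM. Without the acinar libraries they were Pck1 -0.21, Irs2 -0.41 and Gys2 -0.19 in RYGB against Sham, and Pck1 -0.06, Pklr -0.09, Irs2 -0.48, Mlxipl -0.13 and Grb7 -0.11 in RYGB against WM. Without those and WM 25 they were Pck1 -0.21, Irs2 -0.40 and Gys2 -0.19 in RYGB against Sham, Irs2 -0.14 in WM against Sham, and Pck1 -0.13, Irs2 -0.26 and Foxo1 0.01 in RYGB against WM. The correlation of Pklr and Slc2a2 in Sham was -0.013 on the deposited normalized values.

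With single libraries left out, values that crossed 0 ranged, in RYGB against Sham, from -0.04 to 0.26 for Pck1, -0.24 to 0.05 for Irs1, -0.12 to 0.34 for Irs2, -0.28 to 0.03 for Pck2, -0.06 to 0.50 for Igfbp1 and -0.07 to 0.23 for Gys2. In WM against Sham they ranged from -0.19 to 0.08 for Pck1, -0.07 to 0.25 for Irs2 and -0.16 to 0.09 for Pck2. In RYGB against WM they ranged from -0.05 to 0.17 for Pcx, -0.04 to 0.30 for Pklr, -0.27 to 0.31 for Irs2, -0.20 to 0.08 for Pck2, -0.47 to 0.01 for G6pc3, -0.15 to 0.05 for Foxo1, -0.01 to 0.29 for Mlxipl and -0.04 to 0.28 for Grb7.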
